A study of Mus musculus with 6 samples.

Results

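The 323 regions described here are those with the highest ratio of methylated to input DNA on a promoter-scale microarray of mouse liver, out of 21987 regions in all (1.47%). Liver DNA came from offspring aged 32 weeks. Their dams had been fed either a chromium-restricted or a control diet, and 3 arrays were run for each group. Chromium is a trace element. No strain, sex, litter or pooling is stated in the labels, so each array is taken as 1 sample and the spread between arrays may be technical. The tissue label is liver, while the extraction label names fat, and the tissue could not be checked on marker genes because gene positions on the build of the array were not used here.

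The assay was methylated DNA immunoprecipitation on a 2-colour tiling array (MeDIP-chip). An antibody against methylated cytosine pulls down DNA fragments, which were labelled red, and whole input DNA was labelled green and hybridised to the same array. Each probe value is the log2 ratio of red over green, with the median over all probes of its array set to 0, so a value states enrichment relative to the typical probe of that array and no absolute methylation level. Probes whose starts lay within 1000 bp of the next were joined into a region where at least 3 followed each other, and the probe values were averaged. The 323 regions were chosen by their level: those selected had a mean over all 6 arrays above 0.8. That choice used the level over both groups together. It did not use the difference between the groups, the length, the chromosome or the neighbours of a region. The name given to the set, most methylated promoter regions, could not be checked on annotated gene starts, and the set is called the high-ratio regions below.

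In mammals, DNA methylation is found mostly at cytosines followed by guanine (CpG). Promoters rich in CpG (CpG islands) are usually free of it in liver and most other tissues. Promoters of moderate or low CpG content, and those of many genes used only in germ cells, are commonly methylated in somatic tissue. Antibody pull-down responds to the number of methylated CpGs in a fragment, so a methylated stretch rich in CpG gives a higher ratio than a methylated stretch with few. Probe and region sequences were not analysed here.

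The high-ratio regions formed a short upper tail (plot of region means). Their means ran from 0.80 to 1.88 with a median of 0.90, against a median of -0.11 over all regions and a lowest region of -4.98. A median of 0.90 is a 1.86-fold higher ratio than that of the typical probe. Only 81 regions had a mean above 1, and 1 had a mean above 1.5. The lower tail was longer, with 345 regions below -2. The threshold fell on a continuous slope. The 3 regions just inside it, on chromosome 4 from 42964723 to 42966196, on chromosome 7 from 27542003 to 27542457 and on chromosome 2 from 17958873 to 17960452, and the 3 just outside it, on chromosome 7 from 134851781, chromosome 6 from 59375917 and chromosome 2 from 165225569, all had means of 0.80 to 2 decimals. At 0.6 there were 1086 regions.

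**Figure D1:**
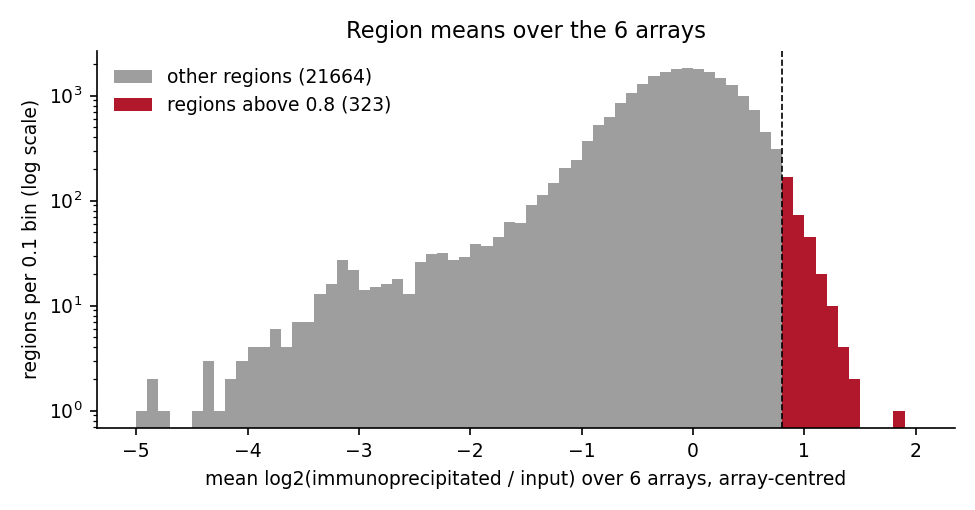
Number of regions (log axis) by mean array-centred log2 ratio over the 6 arrays, in bins of 0.1, with the 323 regions above 0.8 in red and the other 21664 in grey. The upper tail ends at 1.88 and the lower tail reaches -4.98, and the dashed line at 0.8 cuts a continuous slope.

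The highest region lay on chromosome 10 from 62891574 to 62892980. Its values on arrays 1, 2 and 3 were 1.88, 1.99 and 2.02 after chromium restriction, against 1.71, 1.84 and 1.85 in the controls. It was the highest of the 323 on each of the 6 arrays, but on control array 1 the next region reached 1.66. The next highest 6-array mean was 1.46. All 7 of its probes were above 0, with means over the arrays of 1.36, 3.01, 0.36, 3.65, 1.25, 1.99 and 1.53 in order of position. At the fourth probe the background-subtracted immunoprecipitated signal averaged 1165 scanner units against 51.7 units of input, and without this probe the region still had a mean of 1.58. A probe is called well detected below where the scanner software marked its red and its green signal as well above background on each of the 6 arrays. Of the 7 probes 5 were well detected.

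The region ranked second, on the X chromosome from 12513044 to 12514336, had 1.47, 1.61 and 1.32 after chromium restriction against 1.66, 1.18 and 1.53 in controls, and the groups overlapped. Its 6 probes ran from 0.57 to 2.67. The third, on chromosome 2 from 30214337 to 30215656, had 1.35, 1.58 and 1.72 against 1.30, 1.28 and 1.39, again with overlap. Its 5 probes ranged from 0.03 to 2.95, and the highest of them had a mean input signal of 7.5 units. The fourth, on chromosome 10 from 79710991 to 79712564, had 1.44, 1.56 and 1.35 against 1.33, 1.34 and 1.32, without overlap. It was the highest region with every probe well detected, 7 of 7, and its probe means ran from 0.45 to 2.33.

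Ranks 5 to 10 had means from 1.38 down to 1.26. They were chromosome 2 from 34986468 (7 probes), chromosome 2 from 78077657 (3 probes), chromosome 17 from 29078715 (3 probes), chromosome 4 from 123020011 (7 probes), chromosome 11 from 73241530 (4 probes) and chromosome 8 from 86064794 (3 probes). Of these 6 regions, those on chromosomes 4, 8 and 17 had every probe above 0 and the other 3 did not. Among regions whose probes were all well detected, the next highest were chromosome 17 from 29078715 (1.32), chromosome 8 from 86064794 (1.26), chromosome 13 from 115891682 (1.20, 7 probes) and chromosome 7 from 29123338 (1.17, 5 probes). The region on chromosome 13 held a single probe at 2.84 and one at -0.33.

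**Figure D2:**
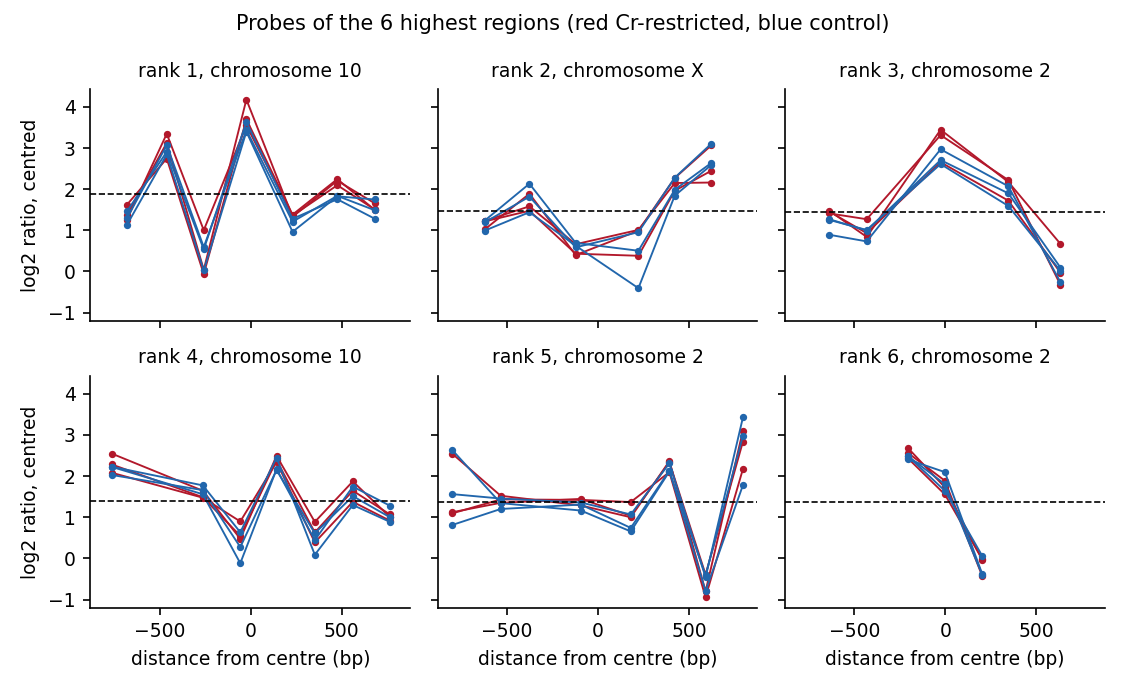
Array-centred log2 ratio of each probe against its distance from the region's centre in bp, for the 6 regions with the highest means, 1 line per array (red chromium-restricted, blue control). Dashed lines are region means. The 6 arrays trace nearly the same zigzag, while neighbouring probes differ by up to 3 log2 units or more.

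Within the high-ratio regions, single probes of one region differed widely. The SD between probes of a region had a median of 0.84, and the range over the 6 arrays of a region mean had a median of 0.27. The range is of values already averaged over probes, so these measures are not alike. Over all regions the corresponding medians were 1.12 and 0.30. Across the 2244 probes of the high-ratio regions, the chromium-restricted and control means correlated at r = 0.972, as a description across probes, which are not independent replicates. Neighbouring probes were much less alike. Over all 152036 neighbouring pairs on the array, with a median spacing of 209 bp, the ratios correlated at r = 0.10, the immunoprecipitated signals at 0.192 and the input signals at 0.247. Probe values thus repeated closely between the group means and were little shared between neighbours.

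Of the 2244 probes, 1950 (86.9%) were above 0 and 1320 (58.8%) above 0.8, against 49.9% and 22.7% of all probes in regions. These shares follow from the choice of the regions and are given as a description. Every probe was above 0 in 104 of the 323 regions (32.2%). The lowest probe of a region had a median of -0.30 and the highest a median of 2.0. With the highest probe of each region left out, 93 of the 323 kept a mean above 0.8, and the lowest of these reduced means was 0.32. No position inside the regions stood out. In regions of 1300 to 2000 bp, the median probe value was 1.02 at the centre, 1.1 at 800 bp to one side and 0.93 at 800 bp to the other, and other regions were as flat, between -0.06 and 0.02.

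The high ratios went with more immunoprecipitated signal and with an input signal near that of other regions. The immunoprecipitated signal, as log2 relative to the array median and averaged over probes and arrays, had a median of 0.80 in the high-ratio regions and -0.10 over all regions. The input signal had a median of 0.03 against 0.18. In scanner units the medians were 231 against 131 for immunoprecipitated DNA and 60.9 against 66.0 for input. The immunoprecipitated signal was above the array median in 80.2% of the high-ratio regions and the input signal in 51.4%. Both signals are parts of the ratio by which the regions were chosen. Neither channel was saturated at any of their probes.

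Detection was better than over all regions. Whether a probe is well detected depends partly on its red signal, and the set was selected for high red over green. The comparison is thus not independent of that selection, whose part in it was not tested. Of the 2244 probes, 1712 (76.3%) were well detected, against 67.5% of all probes in regions. All probes of a region met this in 76 of the 323 regions (23.5%), against 9.39% of all regions. In 3 high-ratio regions no probe met it, on chromosome 3 from 35564790 to 35565259, on chromosome 17 from 39173070 to 39174095 and on the X chromosome from 78702982 to 78703835. They were also the 3 with the widest spread over the arrays, 1.03, 0.94 and 0.94. The region on chromosome 17 had 0.75, 0.68 and 1.25 after chromium restriction against 0.52, 1.45 and 1.20 in controls. The X region had 1.24, 0.88 and 1.61 against 0.67, 1.16 and 1.06. The most even regions were chromosome 17 from 27270352 to 27271932, between 0.84 and 0.88, chromosome 8 from 72838573 to 72839981, between 0.81 and 0.88, and chromosome 9 from 58388340 to 58389943, between 0.95 and 1.03.

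The share of regions above the threshold was highest in regions of few probes and lowest in those of many, though it did not fall at every step (plot of shares). It was 11 of 133 regions with 3 probes (8.27%), 19 of 278 with 4 (6.83%), 28 of 875 with 5 (3.20%), 41 of 2393 with 6 (1.71%), 98 of 5258 with 7 (1.86%), 85 of 7903 with 8 (1.08%), 34 of 3188 with 9 (1.07%) and 7 of 1959 with 10 or more (0.357%). The SD of region means was 1.03 with 3 probes, 0.55 with 8 and 0.39 with 10 or more. The part of averaging fewer probes in these shares was not tested. The high-ratio regions had a median of 7 probes over 1574 bp, all regions 8 probes over 1645 bp. The longest was on chromosome 7 from 148399488 to 148402093, with 13 probes, all well detected, 12 of them above 0, and a mean of 0.83. Regions on chromosome 1 from 57433208 to 57435498 (1.07) and from 73061312 to 73063700 (0.81) followed with 11 probes each. None of the 456 regions of at least 14 probes was among the 323, although 58 of them held a run of 7 neighbouring probes with a mean above 0.8. Such a region offers many overlapping runs, so this count cannot be compared with the shares above. Probes were 45 to 60 bases long, and the shortest length made up 56.6% of the probes in high-ratio regions against 49.9% in all regions, and the longest 7.35% against 13.2%.

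**Figure D3:**
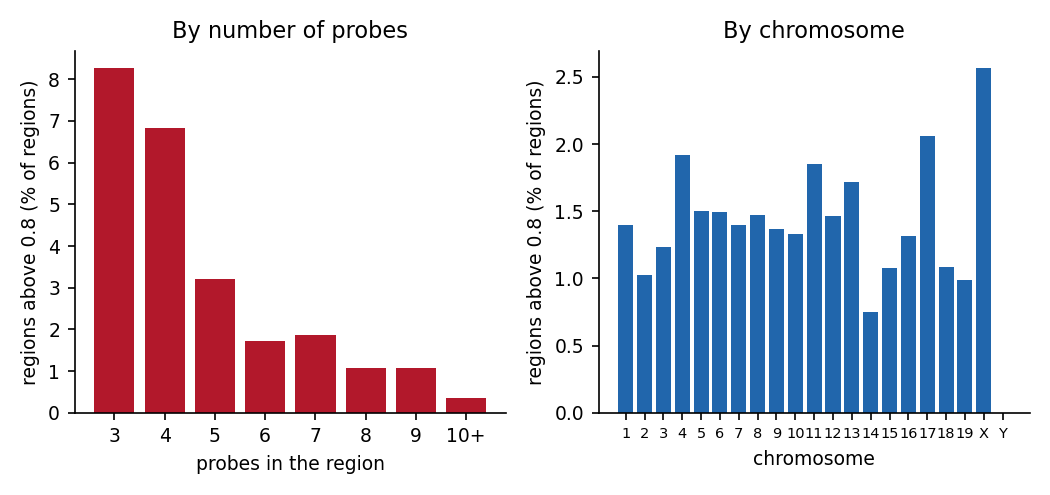
Share of regions with a mean above 0.8, in percent of regions, by number of probes in the region (left) and by chromosome (right). The share is 8.27% at 3 probes, 1.71% at 6, 1.86% at 7 and 0.357% at 10 or more, and by chromosome it is highest on X (2.57%).

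The 323 regions lay on every chromosome except Y, which held 15 regions. The X chromosome held 24 among 935 regions (2.57%), the autosomes together 299 among 21037 (1.42%). Among regions of at least 5 probes the shares were 2.43% and 1.31%. Region means were also more widely spread on X, with an SD of 0.79 against 0.58. The median region mean was 0.016 on X, while those of the autosomes lay between -0.18 and -0.056. Detection was lower on X, with a median of 60% of a region's probes well detected against 71.4% on the autosomes. The parts of level, spread and detection in the higher share were not tested. Within the X regions of the set, the median was 0.88 after chromium restriction and 0.91 in controls. Chromosomes 17 (22 of 1066, 2.06%), 4 (26 of 1356, 1.92%) and 11 (30 of 1621, 1.85%) followed, and chromosome 14 had the lowest share of the autosomes (6 of 797, 0.753%). With 6 to 30 regions per autosome these shares are imprecise, and no test of them was made.

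Most of the regions lay alone in their window. They fell in 267 windows of 1 Mb, of which 220 held 1, 39 held 2, 7 held 3 and 1 held 4. The window with 4 lay on chromosome 17 between 25 and 26 Mb and held 43 regions in all. Its high-ratio regions started at 25097072 (0.94), 25434054 (0.82), 25444677 (1.05) and 25959272 (0.85). Chromosome 4 between 141 and 142 Mb held 3 among 21 regions, starting at 141155372 (0.81), 141219541 (0.86) and 141430337 (0.91). Chromosome 11 between 5 and 6 Mb held 3 among 20, starting at 5161116 (0.84), 5849586 (1.14) and 5965260 (0.90). The nearest region had a median mean of -0.05, against -0.10 for the nearest region of any region, and it was itself above 0.8 in 8 of 323 cases (2.48%, against 1.49% over all regions). Where another region lay within 5000 bp, as it did for 49 of the 323, that region had a median of 0.01 and was above 0.8 in 4 cases (8.16%), against 2.03% for all regions with so close a neighbour. On chromosome 11 the pair from 77850143 to 77851770 and from 77852968 to 77854050 had means of 0.82 and 0.89. Both shares were above those over all regions, they rest on 8 and 4 cases, and no test of them was made.

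The high-ratio regions were high on all 6 arrays as a set, while single regions moved across the threshold (plot of values by array). They were chosen by the mean over these same arrays, so the levels on single arrays follow largely from that choice. In array order, the medians over the 323 regions were 0.91, 0.93 and 0.91 after chromium restriction, and the controls had 0.88, 0.93 and 0.94. On single arrays between 233 (control array 1) and 288 (control array 3) of the 323 were above 0.8, and 123 were above it on every array. No region was above it on fewer than 2 arrays. The lowest value of any of them was 0.32, on chromium-restricted array 3, which was still above 81.4% of all regions on that array. Regions were also chosen in one group alone and then read in the other. Of 330 regions with a control mean above 0.8, 270 (81.8%) were also above it in the chromium-restricted mean, and their median was 0.90 in the controls that chose them and 0.89 in the other group. Of 345 chosen in the chromium-restricted group, the same 270 (78.3%) were above it in controls, with medians of 0.89 and 0.89. Over all probes in regions the group means correlated at r = 0.987, so this overlap is no separate support for the set.

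**Figure D4:**
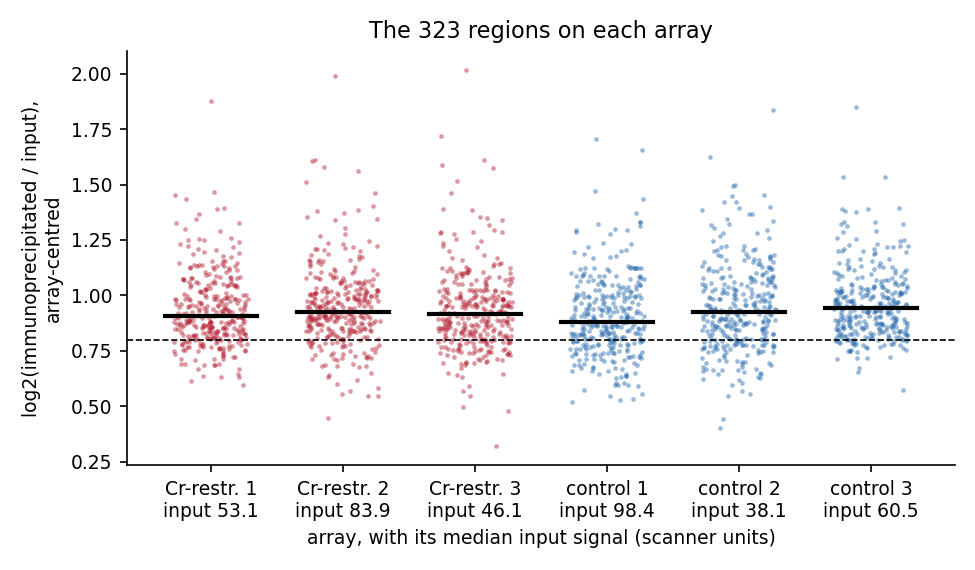
Array-centred log2 ratio of the 323 regions (points) on each array, red for chromium-restricted and blue for control, with the median of each array as a black bar, the threshold of 0.8 dashed and the array's median input signal in scanner units under its name. Medians lie between 0.88 and 0.94 on all 6 arrays, over whose mean the regions were chosen.

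The arrays differed in input brightness, and values of single high-ratio regions moved with it, a part in the results that was not tested beyond the values given here. The median background-subtracted input signal was highest on control array 1 (98.4 units) and chromium-restricted array 2 (83.9) and lowest on control array 2 (38.1) and chromium-restricted array 3 (46.1), so each group had an array at both ends. In 90 of the 323 regions (27.9%) both brightest arrays were above both dimmest, and in 92 (28.5%) both were below, against 23.1% and 44.3% of all regions. The former had a median log2 input signal of 0.29 and the latter of -0.35. Over the 323 regions the brightest arrays correlated with each other at r = 0.778 and the dimmest at 0.633, while control arrays 1 and 2 correlated at 0.127. Pairs with arrays of middle brightness could be as close as the dimmest pair. Control array 3 (60.5 units) correlated at 0.643 with chromium-restricted array 3 and at 0.612 with chromium-restricted array 1 (53.1 units). Among pairs of unlike brightness, chromium-restricted array 2 and control array 2 correlated at 0.146, chromium-restricted array 3 and control array 1 at 0.295. Chromium-restricted array 1 and control array 1 correlated at 0.566. These are descriptions across regions within a narrow range of values. An example is the first region of the chromosome 17 window, from 25097072, with 1.15 and 1.05 on the brightest pair and 0.83 and 0.76 on the dimmest.

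The comparison of the study asked whether the diet of the dam was followed by a difference in methylation of offspring liver. No high-ratio region passed the test of a difference between the groups. In limma, fitted over all 21987 regions with Benjamini-Hochberg adjustment at 0.05, 0 of the 323 passed, where 0.0% of all regions were called, and the lowest adjusted p among them was 1.0. At an unadjusted p under 0.05 there were 0 higher and 4 lower in the chromium-restricted group (1.24%), against 0.896% of all regions (0.409% higher and 0.487% lower), so the share was near the background. The direction of these few calls differed between settings. With the median over probes 4 were higher and 0 lower (1.24%, against 1.33% of all regions). With normexp, another background correction, 2 were higher and 0 lower (0.619% against 0.168%). Without control array 3, 1 was higher and 0 lower (0.31% against 0.541%). With the authors' series values 0 were higher and 5 lower (1.55% against 0.673%), and with flagged spots kept 0 and 3 (0.929% against 0.901%). The 4 regions themselves stayed below 0 under every alternative that gave them a value. The median difference, chromium-restricted minus control, was 0.0025 over the 323 and 0.0040 over all regions, with 169 of the 323 (52.3%) above 0 against 52.5% of all regions. The mean of the array medians was 0.92 ± 0.0093 after chromium restriction and 0.92 ± 0.031 in controls (SD, n = 3 arrays each). Among the 323, the 95% confidence interval had a median extent of 0.20 on either side of the estimate, and for 312 of them it lay wholly between -0.5 and 0.5.

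The groups did not overlap in 23 of the 323 regions (7.12%), 15 of them higher in the chromium-restricted group and 8 lower, where the same was found in 4.44% of all regions (2.49% higher and 1.95% lower). Only 2 regions had a difference of at least 0.3 in size, and both were lower. Single probes were tested in the same way. Of the 2244 probes, 0 passed the adjusted threshold in limma, with 0.0% of all 174278 probes called, and 35 (1.56%) had an unadjusted p under 0.05, 23 higher and 12 lower, against 1.3% of all probes.

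**Figure D5:**
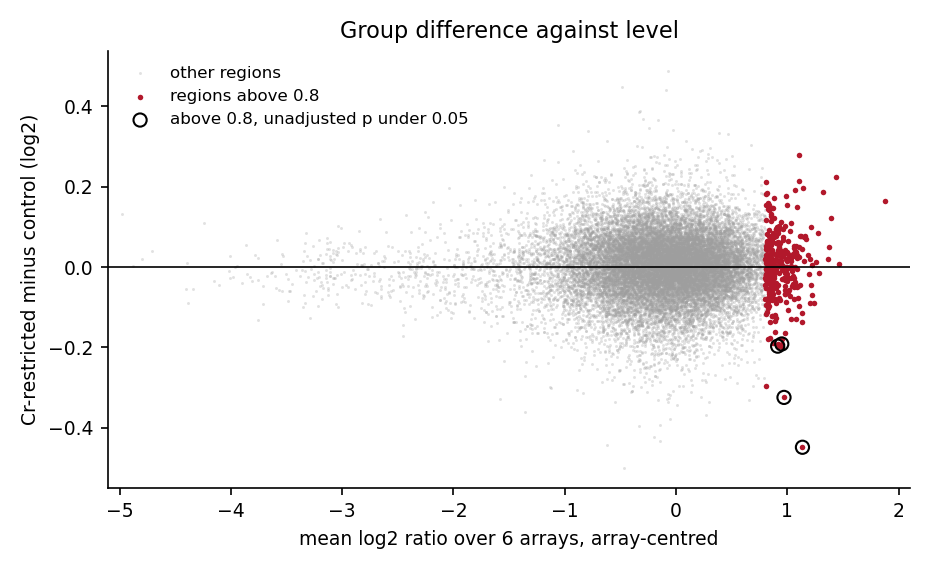
Difference between groups (chromium-restricted minus control, log2) against the mean over the 6 arrays for all regions, with the 323 regions above 0.8 in red. The 4 circled regions (1.24%, against 0.896% of all regions), with an unadjusted limma p under 0.05, lie below 0. The calls differ between settings: 4 higher and 0 lower with the median over probes (1.24% against 1.33%), 2 higher and 0 lower with normexp (0.619% against 0.168%). With the authors' series values they are 0 higher and 5 lower (1.55% against 0.673%). None passed the adjusted threshold.

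Same-numbered arrays of the groups shared a scan. Slide position went with diet, so the within-scan differences below cannot tell the effects of position and diet apart. With the scan as a block, only the X chromosome region from 97789831 stayed under the unadjusted threshold among the 4 (limma unadjusted p = 0.0229). The smallest unadjusted p without the block belonged to chromosome 3 from 35564790 to 35565259. Its values were 1.12, 0.60 and 1.01 after chromium restriction and 1.12, 1.63 and 1.33 in controls, a difference of -0.45 (SE 0.16; limma unadjusted p = 0.0255, or 0.0605 with the scan block, adjusted p = 1.0). The first arrays of both groups were equal to 2 decimals, and the gap came from arrays 2 and 3, with within-scan differences of -1.7e-04, -1.03 and -0.32. None of its 3 probes was well detected, and its mean input signals were 13.3, 10.4 and 2.96 units. Without chromium-restricted array 2 the difference was -0.29. It was -0.12 with the authors' series values (limma unadjusted p = 0.187) and -0.090 with normexp (limma unadjusted p = 0.407).

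The X chromosome region from 97789831 to 97791347 had 0.67, 0.77 and 0.99 against 0.89, 1.32 and 1.19, a difference of -0.32 (SE 0.13; limma unadjusted p = 0.0361), and the groups overlapped. Of its 8 probes 4 were well detected. With only these the difference was -0.04. It was -0.15 with the authors' series values (limma unadjusted p = 0.0278) and -0.079 with normexp (limma unadjusted p = 0.151). A region on chromosome 7 from 20266561 to 20267285 had 0.88, 0.92 and 0.76 against 1.09, 1.01 and 1.04, so that all control arrays were higher. Its difference was -0.19 (SE 0.077; limma unadjusted p = 0.0364, or 0.0737 with the scan block), all 3 of its probes were well detected, and the within-scan differences were -0.21, -0.092 and -0.27. With the median of its 3 probes in place of the mean the difference was -0.073. It was -0.14 with the authors' series values (limma unadjusted p = 0.0188) and -0.093 with normexp (limma unadjusted p = 0.089). On chromosome 4 from 119056091 to 119057532 the values were 0.82, 0.79 and 0.84 against 0.94, 1.16 and 0.93 (difference -0.20, SE 0.086; limma unadjusted p = 0.0498, or 0.0885 with the scan block). The control group was higher on every array, and with the median over its 6 probes the difference was -0.0016. The difference was -0.13 with the authors' series values (limma unadjusted p = 0.0321) and -0.083 with normexp (limma unadjusted p = 0.137). The fifth lowest p among lower regions was that of chromosome 5 from 135844752 to 135846288, with 0.81, 0.98 and 0.76 against 0.999, 1.16 and 0.986. Here the lowest control array, at 0.99, was just above the highest chromium-restricted array, at 0.98, and the within-scan differences were -0.19, -0.18 and -0.23. The group difference was -0.072 with the authors' series values (limma unadjusted p = 0.22) and -0.046 with normexp (limma unadjusted p = 0.32).

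No region with higher values reached an unadjusted p of 0.05. The smallest p, 0.0620 in limma, was found on chromosome 5 from 144655479 to 144657056, with 1.13, 1.38 and 1.13 against 1.09, 1.03 and 0.88. Its difference of 0.21 became 0.024 with only well detected probes and 0.13 without chromium-restricted array 2. It was 0.0047 with the authors' series values (limma unadjusted p = 0.94) and 0.026 with normexp (limma unadjusted p = 0.64). Chromosome 2 from 30214337, rank 3 by mean, had a difference of 0.23. Under the alternatives it ranged from 0.072 with normexp (limma unadjusted p = 0.25) to 0.33 without chromium-restricted array 1 (limma unadjusted p = 0.011). It was 0.082 with the authors' series values (limma unadjusted p = 0.30) and 0.14 without chromium-restricted array 3. With the median over probes it was 0.31 (limma unadjusted p = 0.049). The X chromosome region from 7257729 to 7259509 had 1.05, 0.85 and 0.85 against 0.55, 0.74 and 0.83, a difference of 0.21 that was -0.088 with the median over its 6 probes and 0.13 without control array 1. This difference was 0.032 with the authors' series values (limma unadjusted p = 0.61) and 0.047 with normexp (limma unadjusted p = 0.43). Chromosome 6 from 70868711 to 70870014 had 1.17, 1.21 and 1.1 against 1.0, 1.01 and 1.02. Its difference was 0.15 (SE 0.071), and 0.033 with only well detected probes. It was 0.044 with the authors' series values (limma unadjusted p = 0.38) and 0.043 with normexp (limma unadjusted p = 0.40). The highest region of all, on chromosome 10 from 62891574, had a difference of 0.16 (SE 0.080; limma unadjusted p = 0.0755), with every chromium-restricted array above every control array and within-scan differences of 0.17, 0.15 and 0.17. That difference was 0.21 with only the 5 well detected probes (limma unadjusted p = 0.019) and 0.031 with the median over its 7 probes. It was 0.043 with the authors' series values (limma unadjusted p = 0.45) and 0.093 with normexp (limma unadjusted p = 0.16).

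Which regions were counted as highest depended on how probes were summarised. After 1 array was left out, between 297 and 312 of the 323 were still above 0.8. By rank, between 297 and 311 were then among the same number of highest regions. The arrays kept had also chosen the set, so these counts cannot be weighed against those of other summaries. Of the 323, 165 were among the 323 highest regions with another background correction (normexp), 173 with the authors' series values, 152 with the median over probes and 68 with only well detected probes. The last setting gave a value to 303 of the 323, with a median of 0.89, and raised the median over all regions from -0.11 to 0.17. Under these 4 settings the 323 regions stayed above 0 with few exceptions. With normexp 322 of 323 did so, and with the authors' series values 321 of 323. With the median all 323 were above 0, and with well detected probes all 303. These settings summarise the same arrays whose mean above 0.8 chose the set, so values above 0 follow largely from that choice. The share of all regions above 0 under each setting is not given here, so these counts are no separate support for the set.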

How the data were processed

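Immunoprecipitated (Cy5) and input (Cy3) liver DNA of 6 mouse samples was compared on 2-colour Agilent arrays, all with the same dye orientation, per the labels. Agilent Feature Extraction 11.0.1.1 read the scans and probes were placed on mm9, per the file headers. The deposited processed signals are intensity values that the software had background-subtracted and dye-normalized. The authors' series table holds normalized log ratios, taken here as log2 since its base, centring and smoothing are not given in the sources used here.

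For each array log2 of red over green was centred on the median of 174278 probes, after 5827 control spots and 360 of 174638 probes with a uniformity or population outlier flag were left out. Regions were fitted with limma 3.58.1 in R 4.3.3 (group as the only term), with Benjamini-Hochberg adjustment over all 21987 regions. The fit was tested on simulated data. Normexp (offset 50) used median spot and background signals in place of the planned mean spot signal. Figures were drawn with matplotlib 3.10.9.

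Same-numbered arrays of both groups came from one scan, and a block on the number is a block on the scan. Position 2 of a slide always held a chromium-restricted sample and position 4 a control, so the effects of position and diet cannot be told apart. The only gene table given is of a later build, coordinates were not converted, and the planned gene lists could not be applied. The regions and the rule for naming them were chosen with earlier results of these data known. Named were the 10 highest regions, 5 per direction by unadjusted p, those nearest the threshold, those in the 3 fullest windows of 1 Mb, the 5 highest with all probes well above background, the 3 with most probes, the 3 widest and 3 most even over arrays, and the highest on X. Regions named outside this rule are a pair on chromosome 11, chosen after their values were seen.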

Additional observations from a re-analysis of the deposited data

How the results depend on the processing

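No region of the set passed the adjusted threshold in limma under any alternative tried. The count at an unadjusted p under 0.05 was 4 of 323 in the report (0 higher, 4 lower), 1.24% against 0.896% of all regions. With normexp it was 2 of 323 (2 higher, 0 lower), 0.619% against 0.168%. The median over probes gave 4 of 323 (4 higher, 0 lower), 1.24% against 1.33%. The well detected probes alone gave 2 of 303 (1 higher, 1 lower), 0.66% against 0.416%. Regions of at least 5 probes gave 2 of 293. The authors' series values gave 5 of 323 (0 higher, 5 lower), 1.55% against 0.673%. Flagged spots kept gave 3 of 323 (0 higher, 3 lower), 0.929% against 0.901%. Other thresholds count over other sets: 8 of 1086 regions at 0.6 and 1 of 81 at 1. With each array's median input signal as covariate the count was 22 of 323 (12 higher and 10 lower). That is 6.81%, and all regions rose from 0.896% to 3.86%. Leaving out 1 array gave 1 to 12. The highest came without control array 1 (3.72%, against 2.54% of all regions) and the lowest without control array 3 (0.31% against 0.541%). The cause of these changes was not tested. A fit with the replicate block (equal to the scan) gave 1 (0.31%, against 0.509% of all regions), the X chromosome region from 97789831, and 0 after adjustment. For replicate numbers 1, 2 and 3, the deviations from the group mean had correlations of 0.146, -0.591 and 0.197 between the groups, so nothing but the scan is known to be shared. The median difference stayed between -0.0094 and 0.020. The number of regions above 0.8 was 104 with normexp, whose offset draws ratios toward 0, 601 with the authors' values, 910 with the median over probes, 1372 with the well detected probes alone, 1086 at a threshold of 0.6, 81 at 1, and 317 to 342 with 1 array left out. Of 129 values of the 10 named differences under alternatives, 1 reversed: -0.088 on the X chromosome from 7257729 with the median over probes. Precision is limited by 3 arrays per group, and the part of dim input spots in it was not tested.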
